A study of Homo sapiens with 6 samples.

Results

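The 8 genes GOSR1, SPG21, PHAF1, UBP1, AGAP1, KREMEN1, KLHL7 and CAMTA2 had small p-values when the division of a gene's reads among its transcripts was compared between RBM10-knockdown and control cells, and they were chosen for that reason from a table of 16306 genes. In edgeR's diffSpliceDGE with Benjamini-Hochberg adjustment over the 8348 genes with at least 2 tested transcripts, 6 of the 8 genes were called at an adjusted p under 0.05, where 0.0958% of all genes were called. With any single library left out, UBP1, AGAP1 and KREMEN1 were no longer called (edgeR adjusted p of 0.0613 to 0.586), PHAF1 was called only without shRBM10 library B and SPG21 was lost without sh-NC replicate 2, and limma voom called none of the 8. That comparison is the one that chose them, so their values below are a description and carry no test. The 6 libraries came from PC9, an EGFR 19Del line of human lung adenocarcinoma, carrying either a control short hairpin RNA (sh-NC, 3 libraries) or one against RBM10 (shRBM10, 3 libraries). The labels and the study give PC9 cells, while the protocol text speaks of retinas and of 2 library kits. All 6 libraries share the cell line, and neither source says which RBM10 hairpin was used here, whether clones were picked, or at what time after delivery RNA was taken. All shRBM10 columns have SH1 in their names, and whether this names a hairpin is not stated. The column names of the shRBM10 libraries B and C match no sample title. Their group was read from SH1 in the name, and these libraries carry a letter and no replicate number. The labels number the libraries of a group as separate biosamples, and the study states independent repeats for its experiments in general. Neither names separate cultures for these libraries, so the spread between them may be technical in part.

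A gene can give several messenger RNAs by alternative splicing, in which an exon is kept or skipped or an exon ends at one of several splice sites, and by alternative first and last exons. RBM10 is an RNA-binding protein of the spliceosome that is known for promoting the skipping of exons and is often mutated in lung adenocarcinoma. The products of the 8 genes are known from membrane traffic (GOSR1, AGAP1, SPG21), autophagy (PHAF1), transcription (UBP1, CAMTA2), Wnt signalling (KREMEN1) and ubiquitination (KLHL7).

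For 4 of the genes, a short coding stretch whose use is described below is printed. In GENCODE release 29 on GRCh38, 2 of the measured transcripts of the gene differ in it. SPG21, KREMEN1 and CAMTA2 also have coding stretches in which curated transcripts differ, and these are not printed. For GOSR1 the whole of exon 2 is shown (chr17:30481143-30481263, plus strand, 121 bases), with capitals for the 6 bases that NM_004871 keeps and that the 115-base exon 2 of NM_001007025 and NM_001007024 lacks. They add 2 codons and open with GT, the letters with which most introns start. AGAP1 exon 12 (chr2:235930765-235930923, plus strand, 159 bases, 53 codons) is in NM_001037131 and not in NM_014914. UBP1 exon 8 (chr3:33408690-33408797, minus strand, 108 bases, 36 codons) is in the structure paired with NM_014517 and NM_001128161 and not in NM_001128160. For KLHL7 the 56 coding bases of the early last exon of NM_001172428 are shown (chr7:23125761-23125816, plus strand). All are written 5′ to 3′ on the strand of the gene, and only in GOSR1 do capitals mark a part.
GOSR1 exon 2: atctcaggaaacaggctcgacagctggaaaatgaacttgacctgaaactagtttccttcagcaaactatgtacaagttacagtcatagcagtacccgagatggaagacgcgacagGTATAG
AGAP1 exon 12: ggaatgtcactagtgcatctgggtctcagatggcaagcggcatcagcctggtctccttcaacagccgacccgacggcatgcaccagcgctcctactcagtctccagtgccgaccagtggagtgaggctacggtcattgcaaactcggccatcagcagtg
UBP1 exon 8: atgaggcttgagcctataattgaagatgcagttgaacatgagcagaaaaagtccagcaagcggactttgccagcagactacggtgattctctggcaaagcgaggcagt
KLHL7 early last exon, coding part: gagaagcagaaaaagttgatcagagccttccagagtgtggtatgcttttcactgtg

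The libraries held 16606401 to 18864241 estimated counts. RBM10 levels in CPM (counts per 1000000 counts of the library), scaled by edgeR's trimmed mean of M-values (TMM), were 77.9, 64.4 and 79.9 in sh-NC against 29.2, 27.99 and 36.6 in shRBM10, a log2 fold change of -1.24 ± 0.23 (SE, 3 libraries a group) that did not pass the adjustment over all genes (edgeR quasi-likelihood adjusted p = 0.1). The library sh-NC replicate 2 stood apart, with a TMM factor of 0.738 where the other 5 lay at 1.03 to 1.08, and with effective transcript lengths 30.8 bases shorter at the median than in sh-NC replicate 1. Some shares and exon values are therefore also given without sh-NC replicate 2. Sums of cell type markers were taken in CPM without TMM scaling. Those of PC9 epithelium lay at 33100 to 41000 CPM in sh-NC and 26700 to 37200 in shRBM10. Retinal markers, of which 4 of 7 were in the table, summed to 4.52 to 6.71 in all libraries, and leukocyte, endothelial and fibroblast markers to 11.4 or less.

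The table lists 60 transcripts for the 8 genes, 26 curated RefSeq models (NM) and 34 predicted ones (XM). Of these, 41 passed the filter on low counts, and 41 took at least 5% of their gene's count in at least 1 library. In 7 of the 8 genes 1 transcript went from under 1 count in every sh-NC library to at least 10 counts in every shRBM10 library, as the plot of estimated counts shows. This held for 0.617% of the transcripts tested, in 2.48% of the genes tested, and the test that chose the genes responds to it. The remaining gene, SPG21, showed the converse, a transcript counted in every sh-NC library and at 0 in every shRBM10 library. Under 1 count in every shRBM10 library and at least 10 in every sh-NC library held for 0.244% of the transcripts tested, in 1.01% of the genes. Among the 212 transcripts of all genes with the first pattern, NM_004871 of GOSR1 had the 2nd highest summed count in shRBM10.

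**Figure D1:**
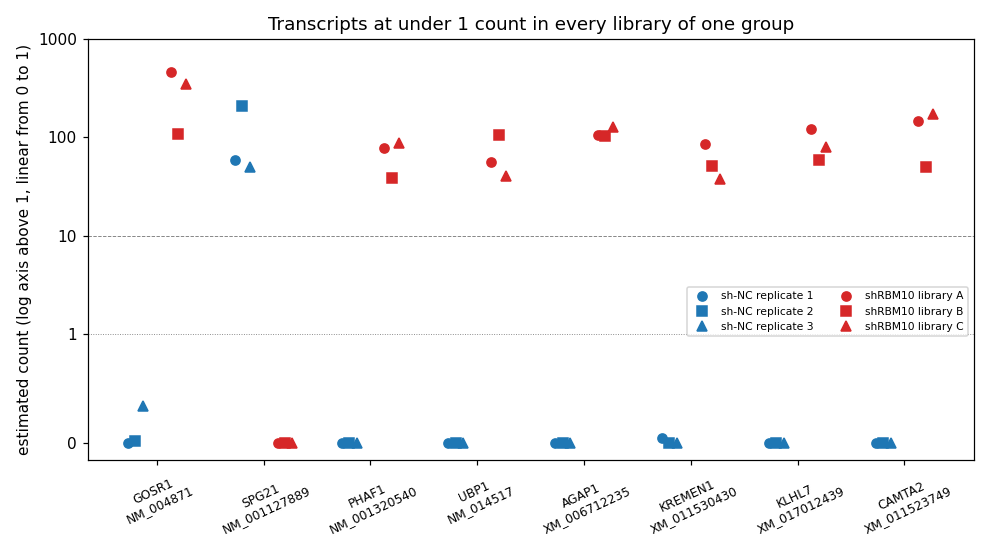
Estimated counts per library (vertical axis, logarithmic above 1 and linear from 0 to 1) of the 8 member transcripts that were under 1 count in every library of one group and at 10 or more in every library of the other. Blue points are sh-NC and red points shRBM10 libraries. The dotted and dashed lines mark 1 and 10 counts. SPG21 NM_001127889 is the transcript counted in sh-NC, and the other 7 were counted in shRBM10.

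GOSR1, a Golgi SNARE that helps transport vesicles fuse (Entrez 9527, chr17:30477362-30527592), showed the largest change in shares of counts among the 8 genes. In sh-NC, NM_001007025, with the shorter exon 2, took 81.7%, 67.5% and 78.4% of the gene's count, and in shRBM10 libraries A, B and C it took 17.3%, 57.8% and 25.9%. NM_004871, with the 6 additional bases printed above, was at 0%, 0.00492% and 0.0382% in sh-NC and at 58.2%, 14.8% and 51.6% in shRBM10. The groups did not overlap for either transcript, and library B lay between the sh-NC libraries and the other shRBM10 libraries for both.

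Taken over the 3 curated GOSR1 transcripts, the longer end of exon 2 made up 0.0183% ± 0.0256 (SD, n = 3) in sh-NC, against 50.4% ± 28.2 (SD, n = 3) in shRBM10. Library B, at 18.2%, lay apart from A (70.3%) and C (62.9%), and the shRBM10 mean without it was 66.6%. Counts behind these values were 274 to 735 per library. The predicted transcripts, whose exon 2 is not known here, were left out of them. NM_001007024, which shares the shorter exon 2, took 1.79%, 0% and 1.67% in sh-NC against 7.35%, 8.58% and 4.54% in shRBM10. The predicted XM_017025375 took 8.25%, 9.999% and 9.27% in sh-NC and 0.233%, 4.50% and 0% in shRBM10. XM_005258072 (6.56% to 18.2% in sh-NC and 8.62% to 10.6% in shRBM10) and XM_017025376 (1.10% to 4.31% and 3.70% to 8.91%) overlapped between the groups.

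NM_004871 and NM_001007025 had effective lengths of 5746 and 5734 bases, a difference of 12 bases with a rounding error of 10.2. Their paired structures differ within the coding region only at the 6 bases, so reads elsewhere in it fit both. Dividing each count by the effective length, an alternative chosen after seeing the data, lowered the rise of NM_004871 from 41.5 to 21.9 percentage points and the fall of NM_001007025 from -42.2 to -19.1 points. The short predicted transcripts then take a larger part of the total, and the largest change per length among the leading transcripts of the 8 genes is that of PHAF1 NM_001320541, at -22.9 points. The total of GOSR1 was 880, 406 and 891 counts in sh-NC against 790, 729 and 672 in shRBM10, or 39.1 ± 7.70 and 39.1 ± 4.60 CPM (SD, n = 3), with a log2 fold change of 0.00.

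**Figure D2:**
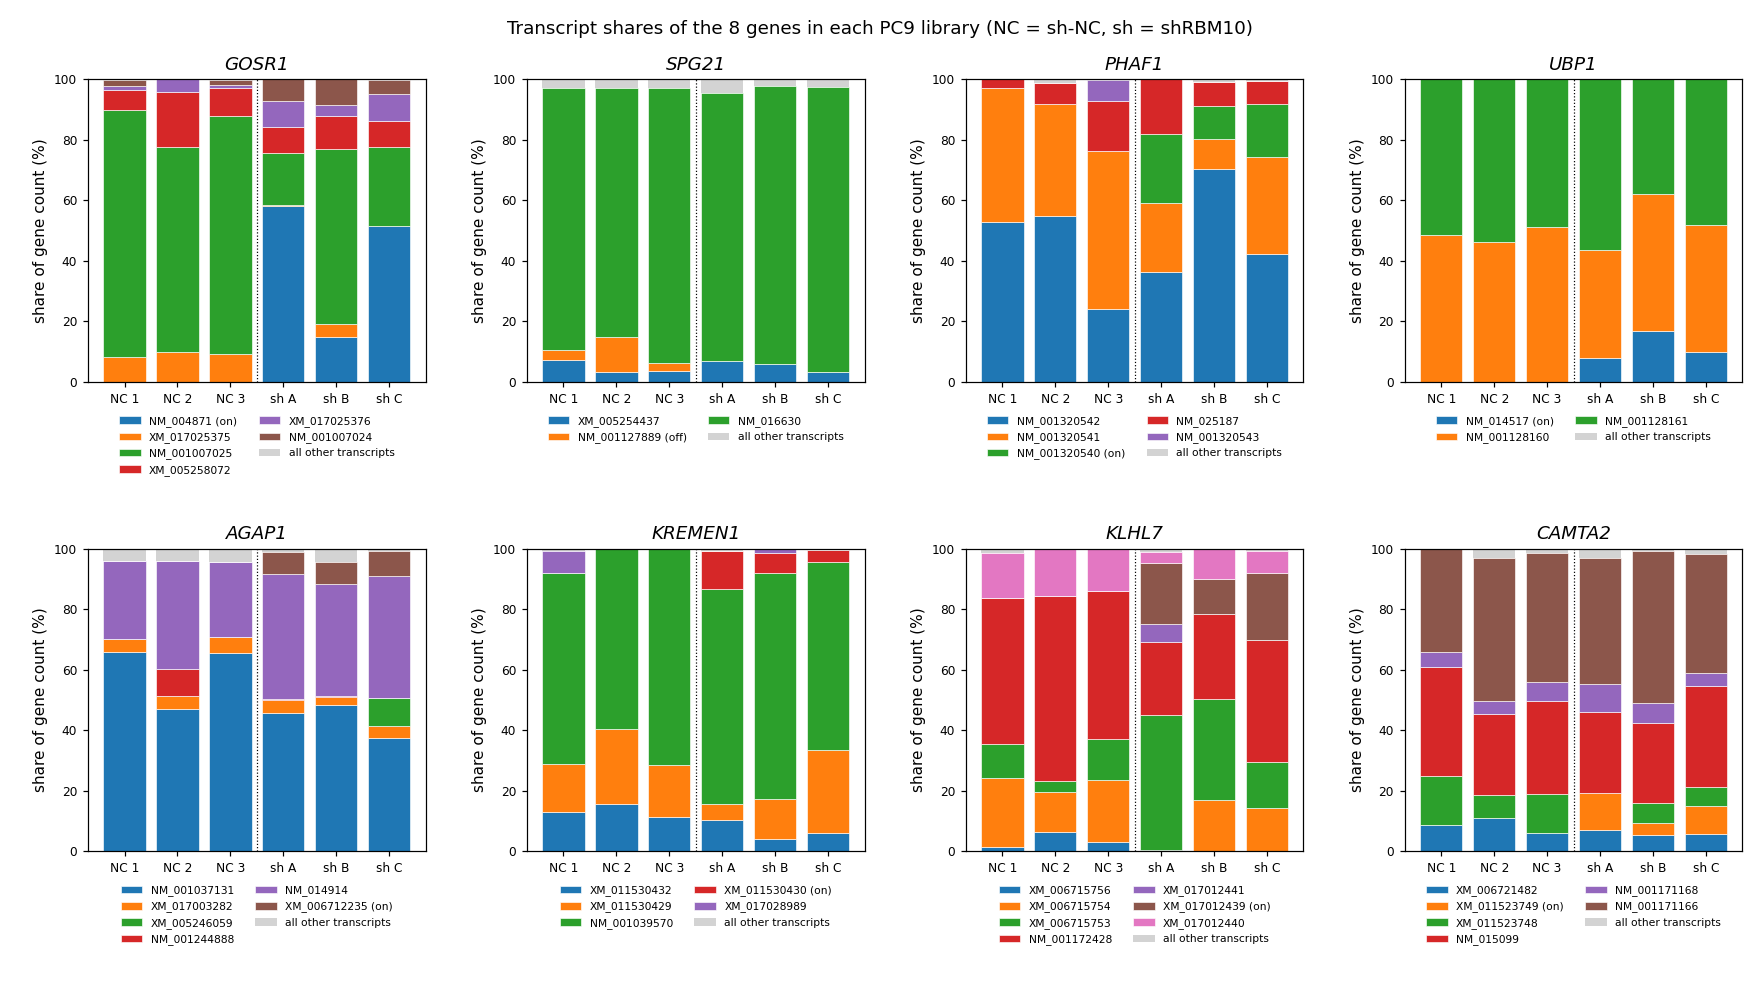
Share of the gene's estimated count (percent, vertical axis) of each transcript in the 6 PC9 libraries, one panel per gene. Colours are transcripts that reached 5% in a library, and grey is the sum of the rest. The mark (on) stands for under 1 count in every sh-NC library and at least 10 in every shRBM10 library, and (off) for the converse. GOSR1 NM_001007025 took 67.5% to 81.7% in sh-NC and 17.3% to 57.8% in shRBM10.

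AGAP1 (Entrez 116987, chr2:235494089-236131800) is a GTPase-activating protein for Arf proteins that acts with the adaptor complex AP-3 in endosomal traffic. Its mean shares shifted from a curated transcript with exon 12 toward one without it. Whether the predicted transcripts hold the exon is not known here. NM_001037131, which holds the exon, took 65.9%, 47.1% and 65.4% of the count in sh-NC and 45.6%, 48.4% and 37.4% in shRBM10. NM_014914, which lacks it, took 25.7%, 35.8% and 24.9% in sh-NC against 41.2%, 37.0% and 40.04% in shRBM10. The groups did not overlap for NM_014914, while for NM_001037131 sh-NC replicate 2 lay within the shRBM10 range.

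Between these transcripts, exon 12 was held by 71.9%, 56.8% and 72.4% in sh-NC and by 52.5%, 56.7% and 48.3% in shRBM10. The difference of the means was -14.5 points, or -19.7 points without sh-NC replicate 2. That library lay next to library B and had only 331 of the counts behind this value, where the other libraries had 1162 to 1677. The effective lengths of both transcripts differed by 158 bases (rounding error 24.1), close to the 159 bases of the exon. Dividing counts by effective length moved the rise of NM_014914 from 10.6 to 15.8 points and the fall of NM_001037131 from -15.7 to -8.75 points.

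The predicted AGAP1 transcript XM_006712235 was at 0% in each sh-NC library and at 7.29%, 7.20% and 8.48% in shRBM10, the narrowest range among the 7 transcripts at under 1 count in every sh-NC library and at least 10 in every shRBM10 library. A pair of others was counted mainly in 1 library of a group, XM_005246059 with 9.35% in library C and NM_001244888 with 8.80% in sh-NC replicate 2. XM_017003282 took 4.29% to 5.30% in sh-NC and 2.47% to 4.51% in shRBM10. The AGAP1 total was 1734, 399 and 1857 counts in sh-NC against 1442, 1436 and 1500 in shRBM10, so sh-NC replicate 2 had the lowest total of the 6 libraries.

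UBP1, a transcription factor of the CP2 family (Entrez 7342, chr3:33388336-33441371), has 3 transcripts in the table. NM_014517 was at 0 in each sh-NC library and took 7.82%, 16.9% and 10.01% in shRBM10. NM_001128160, which lacks exon 8, took 48.5%, 46.2% and 51.3% in sh-NC and 35.8%, 45.2% and 41.8% in shRBM10. NM_001128161 took 51.5%, 53.8% and 48.7% in sh-NC and 56.4%, 38.0% and 48.2% in shRBM10, with overlap between the groups.

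Transcripts with exon 8 made up 51.4% ± 2.52 (SD, n = 3) of the UBP1 count in sh-NC, against 59.1% ± 4.73 (SD, n = 3) in shRBM10. The difference was 7.72 points, and it lay between 5.17 and 9.84 points when each library was left out in turn. The groups did not overlap, but sh-NC replicate 2 (53.8%) and library B (54.8%) lay close together. NM_014517 and NM_001128161 pair with 1 GENCODE transcript, while their effective lengths of 3917 and 3518 bases differ, so the part in which they differ could not be named here. The UBP1 total was 23.2 ± 4.53 CPM in sh-NC and 31.0 ± 9.56 in shRBM10 (SD, n = 3), and the groups overlapped.

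KLHL7, a BTB and kelch protein that brings substrates to the CUL3 ubiquitin ligase (Entrez 55975, chr7:23105758-23177914), lost share from its shortest curated transcript. NM_001172428 ends in the early last exon printed above. It has 5 exons and 498 coding bases, where NM_001031710 has 11 exons and 1758 coding bases, 7 of those exons being absent from NM_001172428. It took 48.2%, 61.3% and 48.6% of the count in sh-NC and 23.8%, 28.2% and 40.4% in shRBM10, without overlap. The mean share fell by 21.9 points. Without sh-NC replicate 2 it fell by 17.6 points.

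The predicted KLHL7 transcripts took most of the remainder. XM_017012439 was at 0 in each sh-NC library and took 20.1%, 11.4% and 22.1% in shRBM10. XM_006715753 took 11.3%, 3.46% and 13.5% in sh-NC and 44.8%, 33.3% and 15.0% in shRBM10, so that library C exceeded the highest sh-NC library by little. XM_017012440 took 14.2% to 15.5% in sh-NC and 3.64% to 10.2% in shRBM10, and XM_006715756 took 1.57% to 6.38% and 0% to 0.330%, both without overlap. XM_006715754 overlapped between the groups (13.3% to 22.6% and 0.0829% to 16.9%), and XM_017012441 was counted in library A, at 6.14%, and at 0.02 counts or less elsewhere.

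The share of NM_001172428 depends on the gene's total as well as on its own count. Its counts were 170, 209 and 167 in sh-NC and 144, 145 and 146 in shRBM10, while the gene total was 353, 341 and 344 counts in sh-NC against 603, 515 and 361 in shRBM10. Because NM_001172428 has an effective length of 722 bases and XM_006715753 one of 2894, shares per length differed from shares of counts: the rise of XM_006715753 was 21.6 points by counts and 12.8 points per length, and the fall of NM_001172428 was -21.9 and -16.01 points.

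SPG21 encodes maspardin, a protein of endosomal and Golgi membranes tied to a hereditary spastic paraplegia (Entrez 51324, chr15:64963021-64990310). It was the only one of the 8 genes with a transcript at 10 or more counts in every sh-NC library and under 1 count in every shRBM10 library. NM_001127889, which starts at a separate first exon (chr15:64989406-64989474) downstream of that of NM_016630 (chr15:64989665-64989936), took 3.32%, 11.4% and 2.93% in sh-NC and 0% in each shRBM10 library. Both hold the same 924 coding bases in length, and the first exons named are not coding. Without sh-NC replicate 2, the mean fall of NM_001127889 was -3.13 points in place of -5.89.

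NM_016630 was the main SPG21 transcript in every library, with 86.7%, 82.1% and 90.5% in sh-NC and 88.5%, 91.6% and 94.0% in shRBM10, and the groups overlapped. Exon 4 (chr15:64976475-64976555, 81 coding bases), which NM_001127890 lacks, was held by 98.4% ± 0.154 in sh-NC and 98.6% ± 0.315 in shRBM10 (SD, n = 3). XM_005254437 took 3.43% to 7.13% in sh-NC and 3.42% to 6.98% in shRBM10. The SPG21 total was 1692 to 1840 counts in sh-NC and 1478 to 1980 in shRBM10.

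PHAF1, which acts with BCAS3 at forming autophagosomes (Entrez 80262, named C16orf70 in GENCODE release 29, chr16:67109958-67148539), varied widely within each group. NM_001320540 was at 0 in each sh-NC library and took 22.6%, 10.8% and 17.5% in shRBM10. NM_001320541 took 44.3%, 36.8% and 51.9% in sh-NC and 23.0%, 9.72% and 31.9% in shRBM10. Neither overlapped between the groups, whereas NM_001320542, with the highest mean share in shRBM10, did.

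NM_001320542 of PHAF1 ranged from 24.3% to 54.9% in sh-NC and from 36.2% to 70.5% in shRBM10. NM_025187 took 2.95% to 16.7% in sh-NC and 7.64% to 18.2% in shRBM10, and NM_001320543 was counted only in sh-NC replicate 3, at 6.79%. All 5 curated PHAF1 transcripts pair with the same GENCODE transcript of 16 exons and 1266 coding bases, and their effective lengths lay between 2453 and 2662 bases, so the exons in which they differ are not given here. The PHAF1 total was 382 to 504 counts in sh-NC and 346 to 495 in shRBM10.

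KREMEN1, a membrane receptor for Dickkopf proteins that lowers Wnt signalling (Entrez 83999, chr22:29073078-29168333), kept its main transcript. NM_001039570 took 63.1%, 59.6% and 71.3% in sh-NC and 71.0%, 74.5% and 62.0% in shRBM10, with overlap. XM_011530430 was at 0.05 counts or less in each sh-NC library and took 12.4%, 6.69% and 3.98% in shRBM10. XM_011530432 took 13.0%, 15.7% and 11.2% in sh-NC and 10.4%, 4.08% and 5.995% in shRBM10, so that library A lay just under the sh-NC range.

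XM_011530429 of KREMEN1 spread from 5.28% in library A to 27.6% in library C, a wider range than the 15.99% to 24.7% of sh-NC. XM_017028989 reached 7.31% in sh-NC replicate 1 and 1.18% or less elsewhere. Total counts of KREMEN1 were 42.0 ± 10.2 CPM in sh-NC and 42.6 ± 6.25 in shRBM10 (SD, n = 3).

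CAMTA2, a calmodulin-binding transcription activator (Entrez 23125, chr17:4967992-4987652), had a predicted transcript as both its leading riser and its leading faller, the transcripts with the largest rise and the largest fall of mean share. XM_011523749 was at 0 in each sh-NC library and took 12.4%, 3.72% and 9.48% in shRBM10. XM_011523748 took 16.2%, 7.77% and 12.8% in sh-NC and 0%, 6.68% and 6.31% in shRBM10. Their effective lengths were 4314 and 4334 bases, so they differ little in length. The curated NM_001171166 took 34.2% to 47.2% in sh-NC and 39.5% to 50.2% in shRBM10, and NM_015099 26.5% to 36.1% and 26.3% to 33.3%.

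The remaining CAMTA2 transcripts over 5%, NM_001171168 (4.50% to 6.29% in sh-NC and 4.04% to 9.42% in shRBM10) and XM_006721482 (6.17% to 10.9% and 5.53% to 7.01%), overlapped between the groups. Exon 2 of NM_015099 (chr17:4986192-4986286, 95 bases, of which 31 are coding) was held by 47.3% ± 6.90 of the curated count in sh-NC and 45.1% ± 4.43 in shRBM10 (SD, n = 3), and leaving out single libraries moved the difference of -2.13 points to between -5.44 and 1.45 points. CAMTA2 was the only one of the 8 genes whose total did not overlap between the groups, at 108, 108 and 101 CPM in sh-NC and 65.9, 70.5 and 94.7 in shRBM10. Its log2 fold change was -0.46.

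The parts that differed were of several kinds. The curated transcripts showed a later end of an exon (GOSR1), a lower use of an exon (AGAP1) and a higher use of an exon (UBP1). They also showed a lower share of a transcript with an early last exon (KLHL7). For SPG21, a transcript with a downstream first exon had an estimated count of 0 in every shRBM10 library. Exon use among curated transcripts thus went in opposite directions in AGAP1 and UBP1. It overlapped between the groups in SPG21 exon 4 and CAMTA2 exon 2, as the plot of exon parts shows. For PHAF1, KREMEN1 and CAMTA2 the leading risers and fallers had no structure of their own among the sequences used here.

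The leading riser was higher in every shRBM10 than in every sh-NC library in 7 of the 8 genes (22.3% of all genes tested) and the leading faller lower in 7 of the 8 (20.9% of all genes tested). The exceptions were NM_016630 of SPG21 and NM_001037131 of AGAP1. These counts follow from the choice of the genes. Of the 16 leading transcripts, library B was the shRBM10 library nearest to the sh-NC mean in 8, library A in 3 and library C in 4, with a tie in SPG21 at 0%. Library A lay farthest from that mean in 10, library B in 3 and library C in 2, with the same tie. The leading riser and faller of a gene are shares of the same total, so the 16 are not independent. RBM10 itself was lowest in library B, at 27.99 CPM, with library A close to it. Whether its level goes with the shares was not tested.

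The spread among libraries of 1 group was large beside the difference between groups in most of the 8 genes, less so in GOSR1 and KLHL7. As a distance between a pair of libraries, the sum of the rises of a gene's shares from one library to the other was taken, which is 0 for equal shares and 100 for no shared transcript. For GOSR1 the mean distance was 11.1 within sh-NC, 33.4 within shRBM10 and 53.2 between the groups, and for KLHL7 it was 13.4, 29.6 and 42.6. In PHAF1 (22.7, 26.6 and 34.0), UBP1 (3.36, 12.3 and 13.2), AGAP1 (16.4, 11.2 and 23.1) and CAMTA2 (13.8, 14.6 and 17.2) the distance between groups was nearer to those within.

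In SPG21 the distance between the groups, 7.29, was below that within sh-NC, 7.44, and in KREMEN1 it was 16.8 beside 17.2 within shRBM10. The SPG21 values include sh-NC replicate 2, where NM_001127889 took 11.4% beside 3.32% and 2.93% in the other sh-NC libraries. Distances without that library were not taken, and the order in SPG21 may rest on it. Over the 3450 tested genes with a mean count in the range of the 8 genes, the median distances were 8.38 within sh-NC, 7.77 within shRBM10 and 9.0 between the groups. The median of the largest rise of a share in those genes was 3.55 points. The largest rise in SPG21 was 4.94 points, and 2.77 points without sh-NC replicate 2. In 22.4% of those 3450 genes the distance between the groups exceeded both distances within. With all libraries taken, the 8 genes, chosen for such differences, did so except SPG21 and KREMEN1.

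The gene totals mostly overlapped between the groups, as the plot of totals shows. Of the 8 totals 1 did not overlap, beside 30.1% of the 12620 genes tested, and 3 had a negative log2 fold change (SPG21 -0.14, PHAF1 -0.24, CAMTA2 -0.46). The other log2 fold changes were 0.42 for UBP1, 0.41 for KLHL7, 0.18 for AGAP1, 0.02 for KREMEN1 and 0.00 for GOSR1. Over all genes tested, 2 (0.0158%) passed edgeR's quasi-likelihood test with limits of 0.05 on the adjusted p and of 1 on the size of the log2 fold change, and neither is among the 8. In bulk samples fewer cells with a transcript and less of it per cell cannot be told apart.

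**Figure D3:**
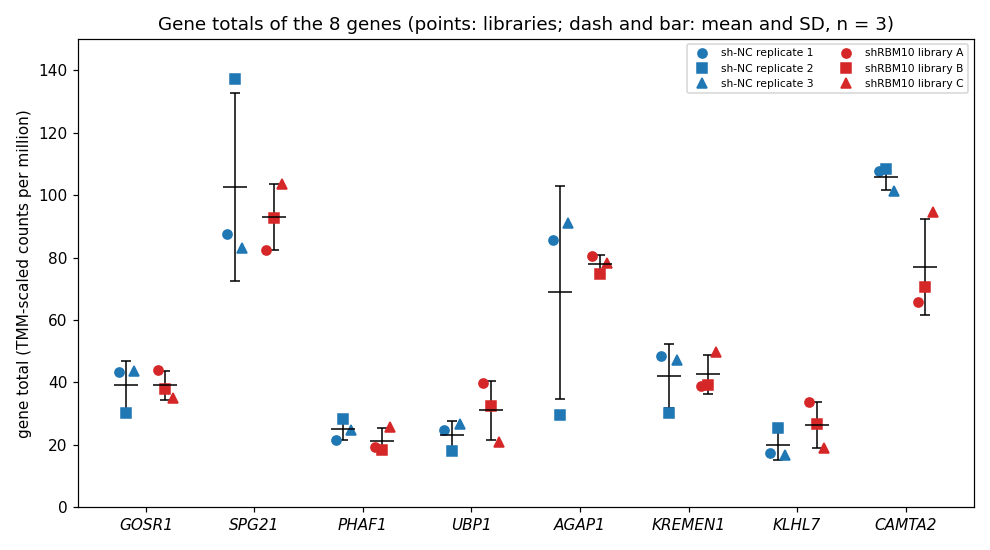
Gene totals of the 8 genes in CPM after TMM scaling (vertical axis), with sh-NC libraries in blue, shRBM10 libraries in red, and mean and SD (n = 3) as dashes and bars. In 7 of the 8 genes the groups overlap, and CAMTA2 is lower in every shRBM10 library. AGAP1 is lowest in sh-NC replicate 2, at 29.7 CPM.

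The values that chose the genes ran from a Simes p of 2.94e-08 for GOSR1, the 2nd in the ranking of all genes, to 8.03e-05 for CAMTA2, the 10th. After adjustment in edgeR's diffSpliceDGE they were 0.000123 for GOSR1, 0.000274 for SPG21, 0.0249 for PHAF1, 0.0276 for UBP1, 0.0356 for both AGAP1 and KREMEN1, 0.0538 for KLHL7 and 0.0654 for CAMTA2. KREMEN1 and KLHL7 thus lay just inside and just outside the limit of 0.05. Within the ranking, CD44 (adjusted p = 4.21e-05), the hyaluronan receptor, stood 1st and CASP8 (adjusted p = 0.0209), an apoptosis protease, 4th, and HR (adjusted p = 0.0654) followed CAMTA2.

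Genes related to the 8 by family or function, and reported splicing targets of RBM10, were taken as 7 lists of 113 genes in all. The lists by relation were SNAREs of the Golgi and endosome, Arf GTPase-activating proteins with AP-3, and Kremen, Dickkopf and LRP5/6. The others were CUL3 with kelch-like adaptors, CP2, grainyhead-like and CAMTA factors, and partners of PHAF1 and SPG21. The list of RBM10 targets includes RBM10 itself. None of the 78 that could be tested was called for transcript usage by edgeR's diffSpliceDGE, and 2 had an unadjusted Simes p under 0.05, beside 2.74% of all genes. These were KLHL18, an adaptor of CUL3, with an edgeR adjusted p = 0.336 (0.00322 unadjusted), and ASAP3, an Arf GTPase-activating protein, with an edgeR adjusted p = 1 (0.0396 unadjusted). In the other lists the smallest unadjusted p was 0.23 for VAMP7 among the SNAREs, 0.625 for LRP5, 0.524 for TFCP2, 0.356 for ATG16L1 among the partners and 0.219 for RBM5 among 6 tested RBM10 targets. Of the 107 totals tested, 0 were called by edgeR, and 20 were higher and 5 lower at an unadjusted p under 0.05. Such a p was found in 24.3% of all genes, a share not split by direction. Over all genes more totals were likewise called higher than lower by the DESeq2 Wald test, 452 and 121. Its calls used the adjusted p and a limit on the fold change. By list, the median log2 fold change of the totals ran from -0.10 for the Arf GTPase-activating proteins to 0.44 for CUL3 and its adaptors. The median over all genes is not given here.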

How the data were processed

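RNA of 3 sh-NC and 3 shRBM10 PC9 libraries was sequenced by BGI-Tech. The authors deposited estimated counts, FPKM and other measures per gene and per RefSeq transcript. The processing notes name hg38, and the aligner, counting tool and annotation are not given in the sources used here. Between 37.2% and 47.8% of the transcript values of a library were whole numbers, so the deposited estimated counts divide shared reads by a model. FPKM of 4 title-matched libraries gave effective lengths (count over FPKM). Per-sample columns not used numbered 14 in the transcript table and 18 in the gene table, besides 8 of group means in each. Counts were rounded, filtered with filterByExpr, scaled by TMM and tested with edgeR 4.0.16 (diffSpliceDGE with Simes p per gene, glmQLFTest for totals), limma 3.58.1 and DESeq2 1.42.0 in R 4.3.3, with no covariate, and the code was tested on simulated data. Member shares used unrounded counts. Structures and sequences came from GENCODE release 29, paired with 26 of 60 transcripts by its RefSeq table. Such pairs can differ in their transcript ends. The members, the gene lists and the rule for naming (transcripts with 5% in a library, RBM10, the gene of each list with the smallest Simes p and the 3 nearest other genes) were chosen with earlier results of these data known. Alternatives were other normalization, filters and tools, each library left out, a block by column letter, and shares by length.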

Additional observations from a re-analysis of the deposited data

How the results depend on the processing

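The number of genes called for transcript usage was 8 with TMM and with RLE size factors, 7 with genes and transcripts kept at 1 count in all libraries together (3 of the 8 genes described among them), 0 with at least 10 counts in every library, 0 with limma voom and diffSplice, and 525 with the DESeq2 likelihood ratio test, which called all 8. The setting with 10 counts in every library drops transcripts at 0 in a group by construction. It had 156 of 5655 tested genes at an unadjusted Simes p under 0.05. Of 8348 tested genes each, limma voom had 385 and edgeR as reported 229. Leaving out each library in turn gave 5 to 12 genes, of which 1 to 3 were among the 8: GOSR1 was called each time, SPG21 was lost without sh-NC replicate 2 (edgeR adjusted p = 0.161), UBP1, AGAP1, KREMEN1 and KLHL7 were called in none, CAMTA2 was called without library A, and PHAF1 without library B. Genes called for totals were 2 as reported, 31 at 1 count in all libraries together, 573 with the DESeq2 Wald test and 0 to 23 with each library left out, the highest without sh-NC replicate 2. The cause of these differences was not tested. Of 144 alternative values for the 16 leading share differences, 0 changed direction and 3 moved by more than 1 SD, all by dividing by effective length (GOSR1 21.9 and -19.1 points, AGAP1 15.8 points). XM_005246059 of AGAP1 has no length and was left out there. The leading transcripts were picked for their differences in these libraries, so the counts give no support to them. In 7 risers and 7 fallers the groups do not overlap, and leaving out a library cannot change the direction. The SD was that within groups, which was wide (23.4 points for GOSR1 NM_004871 in shRBM10), so small moves could not pass it. The replicate numbers could not be used as a block, because the columns of shRBM10 libraries B and C carry none. With a replicate block by the last letter of the column names instead, chosen after seeing the data, 2 genes were called for usage, of which 1 was among the 8 (SPG21), and 863 for totals. Over genes, deviations from the group means correlated at 0.38, -0.05 and -0.32 between same-letter libraries. Only sh-NC replicate 1 correlated best with its same-letter library. These values do not settle whether the letters pair libraries, and the main tests used no block. Transcript counts are model estimates, and with 3 libraries a group single libraries decide calls.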
